A study of Bos taurus with 16 samples.

Results

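The genes described here drive or mark the cell division cycle. A list of 36 cyclins, replication factors, mitotic kinases and spindle proteins was matched by symbol to the deposited counts, and 30 of the 36 had at least 1 matched RefSeq accession among the 20629 genes and transcripts counted. MKI67, TOP2A, MCM2, FOXM1, TTK and CENPE had no matched accession and were not analysed here. The series holds 16 bovine RNA libraries, of which 9 are labelled control and 7 treatment. All came from lactating Holstein cows of a cohort of 45, whose ovulation was synchronised with gonadotropin-releasing hormone and prostaglandin F2α, and the dominant follicle was aspirated at 63 ± 3 days after calving. Per the labels' protocols the pelleted and washed cells of the aspirate were granulosa cells, which line the follicle and nourish the oocyte, while the tissue field of every library reads blood. The series title names lasting effects of uterine disease on these cells as the question. Cows of the cohort with metritis had received the antimicrobial ceftiofur. The word treatment is not defined in the labels, and the groups keep their labels here. Nor do the labels say that each library is a separate cow, so the p-values reflect library-to-library spread, which may be partly technical.

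A cell enters the cycle when D cyclins and then E cyclins activate their kinases and release the E2F factors, which switch on the genes of DNA replication. The MCM helicase, the sliding clamp PCNA and the enzymes that supply nucleotides act in S phase. Cyclins A2 and B with CDK1 then take the cell into mitosis, where the Polo and Aurora kinases, the spindle checkpoint and kinesin motors separate the chromosomes. In a growing follicle, follicle-stimulating hormone induces cyclin D2 in granulosa cells, which divide rapidly, and they leave the cycle after the surge of luteinising hormone. Monocytes in blood hardly divide, whereas activated lymphocytes and some tissue macrophages do.

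The libraries were of 2 kinds, set apart by INHA, the alpha subunit of the granulosa hormone inhibin. Values are CPM, counts of a gene scaled to the same library total everywhere, with edgeR's TMM factors applied to the totals. INHA lay above 1000 CPM in 9 libraries, called granulosa-rich (control replicates 2, 3, 4, 7 and 8 and treatment replicates 4, 5, 6 and 7), and under 200 CPM in 7, called leukocyte-rich (treatment replicates 1, 2 and 3 with control replicates 1, 5, 6 and 9). The study did not define these kinds; they were read from the data. The summed level of 8 pan-leukocyte markers was 18.1 to 782 CPM in the granulosa-rich and 4581 to 6689 CPM in the leukocyte-rich libraries. Summed over 10 granulosa markers the level was 42280 to 202300 CPM and 172.5 to 4731 CPM, with the highest leukocyte-rich value in treatment replicate 1. In the other 6 leukocyte-rich libraries INHA was at 0.395 to 4.2 CPM, the receptor gene FSHR at 0.0855 to 4.14 CPM and the granulosa factor FOXL2 at 0.171 to 1.26 CPM, near 0 against the labels' protocols. GATM, also on that list, went the other way, at 29.2 to 122 CPM there and a median of 28.7 CPM in the granulosa-rich libraries. PTPRC (CD45) separated the kinds, at 6.58 to 87.3 CPM and 116 to 315 CPM. CD3E, a subunit of the T cell receptor complex, overlapped, at 2.14 to 62.9 CPM and 40.7 to 376 CPM, and 3 B cell markers had a higher summed median in the granulosa-rich libraries (54.9 against 28.7 CPM). Libraries held 8111862 to 14348753 counts, so that 3 counts corresponded to 0.212 to 0.375 CPM before adjustment. Treatment replicate 5 stood apart among the granulosa-rich libraries: 12972 accessions had a count in it, the fewest of the 16 libraries (up to 19236), and it was the lowest of the 9 for 27.4% and the highest for 19.5% of 9272 features. In bulk RNA, fewer cells of a type and less RNA per cell cannot be told apart.

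How many accessions a gene has moved with its measured level. Over 12429 genes with a symbol, those with 1 accession had a median of 7.38 CPM (mean over the 16 libraries, 8363 genes), and those with more than 1 had 2.18 CPM (4066 genes). Among the cell cycle genes the split was wider, with a median of 137 CPM for 17 genes with 1 accession and 5.91 CPM for 13 genes with more. CDK1, the kinase that starts mitosis, has 4 accessions and had 75 counts in all 16 libraries together. TPX2, a spindle assembly factor with 2 accessions, had 52 counts. How reads that fit several transcripts were treated is not given in the sources used here, and its part in these levels was not tested. Transcript lengths were not used either, so levels are compared below between libraries and not between genes. CDK1 and TPX2 were too low for any of the within-kind comparisons, and BUB1, a kinase of the spindle checkpoint with 185 counts in all, was too low for that of the granulosa-rich libraries.

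**Figure D1:**
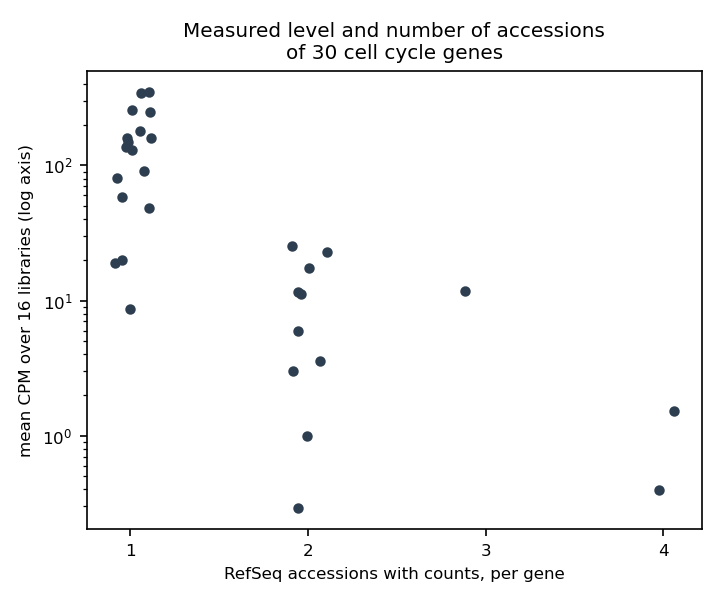
Mean CPM over 16 libraries (log axis) of each of the 30 cell cycle genes against its number of RefSeq accessions with counts, 1 point per gene. Genes with 1 accession have a median of 137 CPM and those with more a median of 5.91 CPM.

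Cell cycle RNA was present in both kinds of library, mostly at a higher level in the leukocyte-rich one. Of the 28 genes that passed edgeR's filter on low counts, 25 had a higher median in the 7 leukocyte-rich than in the 9 granulosa-rich libraries, and the median log2 ratio of the 2 medians was 0.92. Over all 9653 features tested, 52.9% had the higher median there, with a median log2 ratio of 0.08. The ranges mostly overlapped: only RRM2 lay wholly above (1 of 28, where 11.0% of all features did), and only CCND2 wholly below (1 of 28, against 7.82%). Because the kinds were read from the data, they are described with no test. Without treatment replicate 4 the number of genes with separate ranges was 6, without treatment replicate 3 it was 4, and it was 1 when only library size was used to scale.

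**Figure D2:**
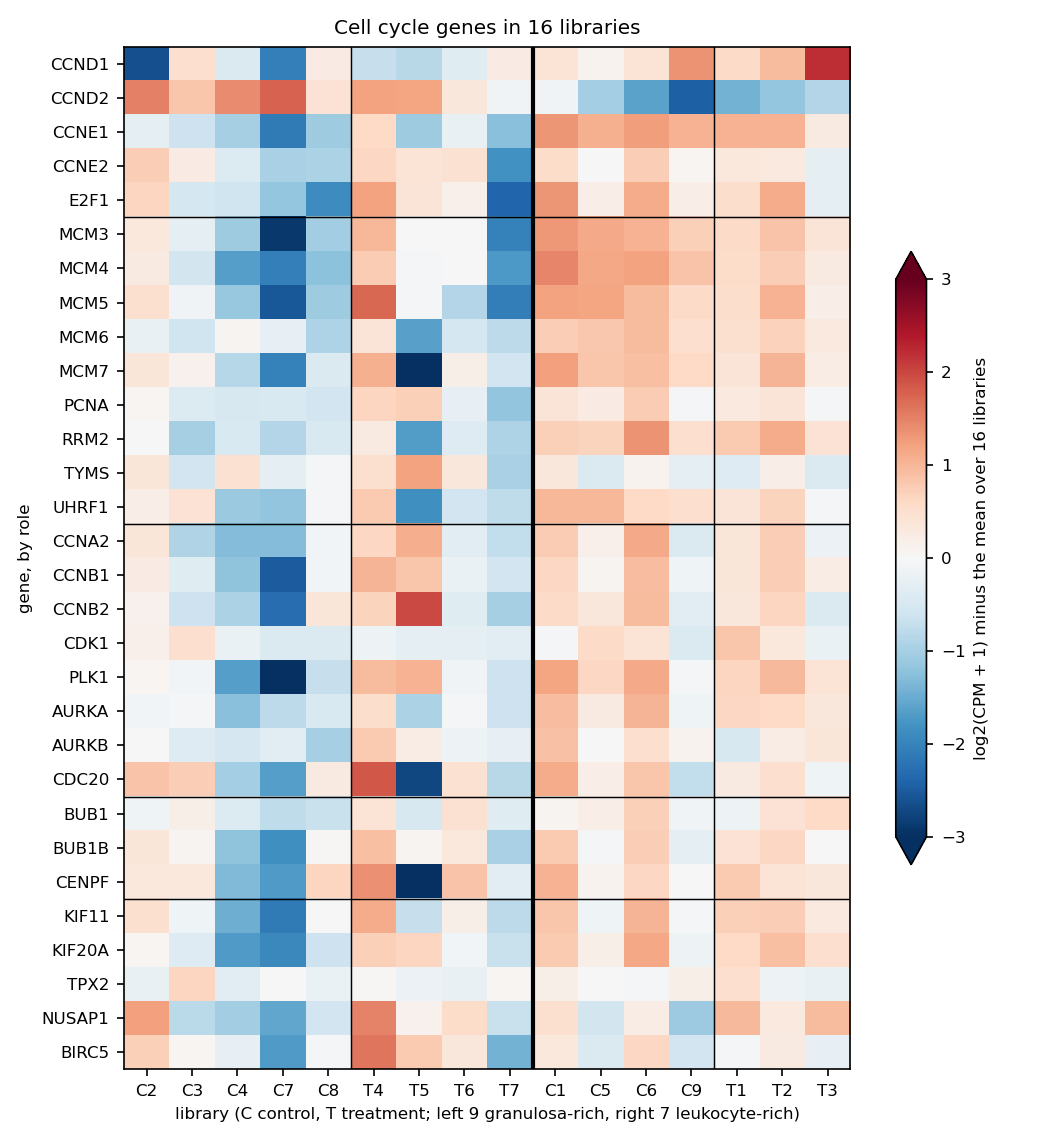
Each cell is the log2(CPM + 1) of a gene in a library minus that gene's mean over 16 libraries, with genes by role from G1 at the top to spindle proteins at the bottom. The right 7 columns (leukocyte-rich) are mostly above the mean and even, the left 9 (granulosa-rich) run from low in control replicate 7 to high in treatment replicate 4, and CCND2 has the opposite pattern between the kinds.

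Among the G1 genes the D cyclins went opposite ways between the kinds. CCND2 (cyclin D2) was at 235 CPM at the lowest, 577 at the median and 856 at the highest in the granulosa-rich libraries, against 45.4, 111 and 235 CPM in the leukocyte-rich ones. The edges of the ranges met, at 234.8 CPM in treatment replicate 7 and 234.7 CPM in control replicate 1. CCND1 (cyclin D1) was low everywhere, from 0.164 to 9.3 CPM with a median of 4.39 in the granulosa-rich and from 6.76 to 32.6 CPM with a median of 9.85 in the leukocyte-rich libraries. CCNE1 (cyclin E1) had the widest gap upwards among the G1 genes, with a median of 6.89 CPM (2.62 to 22.9) against 31.6 CPM (18 to 38.2), a ratio of medians of 4.59. The other E cyclin gene, CCNE2, hardly differed, at a median of 52.5 CPM (11.7 to 74) against 54.3 CPM (35.5 to 74.3). The entry factor E2F1 was at 32.5 CPM (8.2 to 111) against 68 CPM (38.3 to 120), so that the ranges shared most of their span.

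Replication genes made the largest group with higher medians in the leukocyte-rich libraries, 8 of the 9 that were tested. The helicase subunits MCM3, MCM4, MCM5, MCM6 and MCM7 had ratios of medians between 2.23 (MCM3) and 3.63 (MCM5). MCM6 was at 74.7 to 305 CPM in the granulosa-rich and 286 to 445 CPM in the leukocyte-rich libraries, and treatment replicate 4 alone reached into the upper range. RRM2, the small subunit of ribonucleotide reductase, was at 3.9 to 17.8 CPM against 20 to 38.8 CPM. PCNA was at a median of 242 CPM (142 to 535) against 398 CPM (309 to 550), and the chromatin factor UHRF1 at 1.68 against 5.06 CPM. TYMS, the thymidylate synthase, was the exception, with a median of 13.5 CPM against 8.3 CPM and overlapping ranges.

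Most mitotic genes had the higher median in the leukocyte-rich libraries as well. This held for all 7 G2/M genes tested, with a median log2 ratio of 0.74, for the 3 checkpoint and kinetochore genes at 0.35 and for 3 of the 4 spindle and chromosome proteins at 0.92, beside 1.26 for the replication genes. The ratio of medians was 2.53 for NUSAP1, 1.99 for KIF20A and 1.82 for KIF11, a kinesin of the bipolar spindle. CCNB1 (cyclin B1) was at a median of 113 CPM (22.1 to 262) against 167 CPM (119 to 248), and the kinase PLK1 at 58.5 CPM (3.49 to 131) against 98.1 CPM (61.4 to 145). BUB1B, a checkpoint protein, was at 152 against 193 CPM, and the activator of chromosome segregation CDC20 at 10.8 against 10.9 CPM. BIRC5 (survivin), which guides the Aurora B complex, was at 226 CPM (65.8 to 656) against 211 CPM (144 to 333), with the highest and the lowest library both granulosa-rich.

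The 9 granulosa-rich libraries differed among themselves far more than the 7 leukocyte-rich ones. The median over genes of the ratio of highest to lowest library was 9.98 for 27 cell cycle genes in the granulosa-rich and 2.3 for 28 in the leukocyte-rich libraries. All features showed the same contrast, at 6.81 and 2.47. The median SD of log2 CPM was 1.03 for the cell cycle genes against 0.856 for all features in the granulosa-rich, and 0.434 against 0.454 in the leukocyte-rich libraries.

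A few libraries held the extremes. Treatment replicate 4 was the highest of the 9 for 19 of the 27 genes, while it was the highest for 11.9% of all features. Control replicate 7 was the lowest for 13 of the 27, and for 17.2% of all features. PLK1 was at 3.49 CPM in control replicate 7 and at 19.2 CPM in control replicate 4, against 38.4 to 131 CPM in the other 7 libraries. E2F1 was lowest in treatment replicate 7 (8.2 CPM) and control replicate 8 (12 CPM), against 20.5 to 111 CPM elsewhere. Treatment replicate 5 had scattered values: it was the highest for CCNB2 (83.1 CPM, others 3.37 to 33), CCNA2, PLK1, PCNA and TYMS, and the lowest for CDC20 (0.473 CPM, others 2.12 to 34.4), CENPF, MCM6, MCM7, RRM2 and UHRF1. CENPF, a kinetochore protein, was at 0.709 CPM there and at 4.87 to 47.7 CPM in the other 8.

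Macrophage markers moved only in part with this order in the granulosa-rich libraries. The summed level of 7 monocyte and macrophage markers was 405 to 1517 CPM in treatment replicates 4, 5 and 6 and control replicate 3, whose cell cycle genes had median ranks of 9, 6, 6 and 5 of 9. It was 91.4 to 329 CPM in control replicates 4, 7 and 8 and treatment replicate 7, whose median ranks were 3, 2, 4 and 3. Within this lower group the order did not hold, as control replicate 7 had the highest sum (329 CPM) and the lowest median rank (2). Treatment replicate 4 had the highest sum (1517 CPM), with CD68 at 492 CPM and CD14 at 302 CPM. Control replicate 2 was a further exception, with a median rank of 7. It had the lowest sums of the 9 for macrophage (21.1 CPM), pan-leukocyte (18.1 CPM) and T and NK cell markers (4.11 CPM). It held BIRC5 at 356 CPM, KIF11 at 216 CPM and BUB1B at 185 CPM. The summed level of 5 theca and stroma markers was 131 to 441 CPM in control replicate 2 and treatment replicates 4, 5 and 6. The median ranks of these libraries were 6 to 9. The sum was 763 to 1740 CPM in control replicates 3, 4, 7 and 8 and treatment replicate 7, at median ranks 2 to 5. INSL3 of that list went the other way in treatment replicate 5, where it was highest (238 CPM). The groupings by macrophage and by theca sum were made after the values were seen. The part of these cells in the values was not tested.

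Of the inhibitors that hold the cycle back, CDKN1C (p57) split the granulosa-rich libraries. It was at 517 CPM in control replicate 4, 607 CPM in control replicate 7 and 450.0 CPM in treatment replicate 7, and at 1.77 to 27 CPM in the other 6. The same 3 libraries had the lowest median ranks of the 27 cell cycle genes, 3, 2 and 3 of 9, against 4 to 9 in the other 6. CYP17A1, of the theca list, was highest in these 3 too, at 852, 582 and 737 CPM, against 1.1 to 456 CPM in the other 6. INSL3, of the same list, was highest in treatment replicate 5 instead. These coincidences were noticed after the values were seen and were not tested. CDKN1A (p21), which p53 induces, was highest in control replicates 7 and 4 (58.4 and 34.7 CPM) and had no count in treatment replicate 5. CDKN1B (p27) varied little, from 108 to 270 CPM. TK1, the thymidine kinase of S phase, was at 7.64 CPM in treatment replicate 7 and at 98.4 to 339 CPM in the other 8. In the same library aromatase (CYP19A1), which makes oestradiol, was at 277 CPM against 7687 to 29620 CPM in the other 8.

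**Figure D3:**
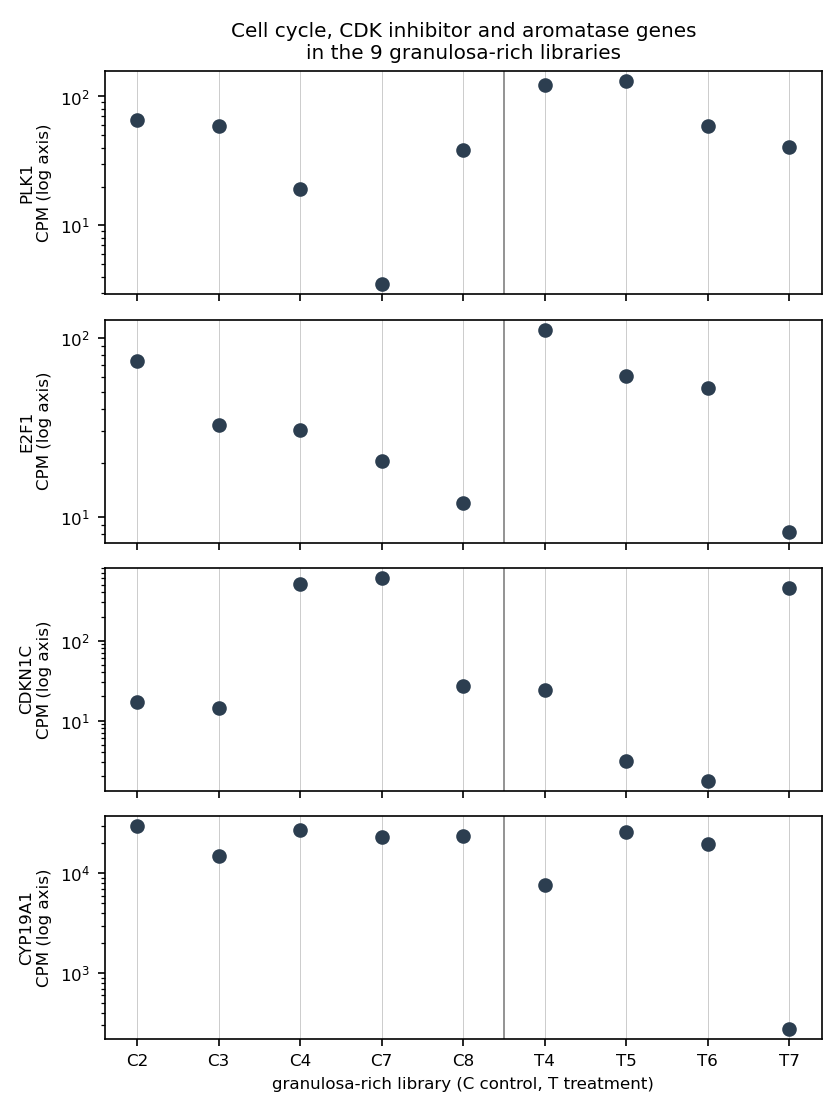
CPM (log axes) of PLK1, E2F1, CDKN1C and CYP19A1 in each of the 9 granulosa-rich libraries, 1 point per library. CDKN1C is at 450.0 to 607 CPM in C4, C7 and T7 and at most 27 CPM elsewhere; PLK1 is lowest in C7 and C4, and E2F1 and CYP19A1 are lowest in T7.

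Treatment was then compared with control within the granulosa-rich libraries, 4 against 5. Fitted values of mitotic genes were higher in treatment, but no gene passed the test. Treatment had the higher fitted value for 23 of the 27 cell cycle genes tested and the lower for 4, at a median log2 fold change of 0.51, and 0 passed an adjusted p of 0.05 in edgeR's quasi-likelihood test (0.0% of 9272 features passed). No cell cycle gene had an unadjusted p under 0.05, where 1.95% of all features did with higher and 2.72% with lower values, and none had groups that did not overlap (0.809% of all features lay wholly above and 0.733% wholly below). Over all features 52.9% had higher fitted values and the median was 0.04. The median of the cell cycle genes was 0.18, with 17 of 27 higher, without treatment replicate 4, and it was 0.84 without control replicate 2 and 0.83 without treatment replicate 7. Without control replicate 2, 4 of 27 genes had an unadjusted p under 0.05 (edgeR), all higher in treatment. Without treatment replicate 7 there were 3 of 28, and 0 with any other library left out. DESeq2 called 27 features, none of them on this list, and gave 1 of the 27 genes an unadjusted p under 0.05. The share of all features at that p was not counted in these settings. Summed macrophage markers were at 21.1 to 589 CPM in the 5 control and 315 to 1517 CPM in the 4 treatment libraries. Theca and stroma markers summed to 441 to 1740 CPM in control. In treatment replicates 4 to 7 they were at 131, 433, 149 and 964 CPM. Epithelial markers summed to 13 to 677 CPM in control and 20.45 to 1069 CPM in treatment. What part these cells had in the comparison was not tested.

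The gene with the lowest p was KIF20A, a kinesin that acts in cytokinesis. It was at 116, 85, 33.8, 28.6 and 72.2 CPM in control replicates 2, 3, 4, 7 and 8, and at 184, 174, 105 and 69.8 CPM in treatment replicates 4 to 7. Of the treatment libraries, 2 lay above every control library and 2 within their range. On the log2 scale its mean was 5.87 ± 0.871 (SD, n = 5 control libraries) and 6.95 ± 0.66 (SD, n = 4 treatment libraries). The log2 fold change was 0.97 ± 0.46 (SE; edgeR's quasi-likelihood test, unadjusted p = 0.0596, adjusted p = 0.983).

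Among the G2/M genes, 7 of 7 had higher fitted values, with a median of 0.91. PLK1, which drives entry into and passage through mitosis, was at 65.7, 59.2, 19.2, 3.49 and 38.4 CPM in the control and 123, 131, 58.5 and 40.3 CPM in the treatment libraries. Its fold change on the log2 scale was 1.21 ± 0.69 (SE; edgeR, adjusted p = 0.983). Treatment replicates 4 and 5 lay above all controls and the other 2 within their range. CCNB1 was at 153, 99.7, 55.5, 22.1 and 122 CPM in control and 262, 231, 113 and 86.8 CPM in treatment, with 2 treatment libraries above all controls. Its log2 fold change was 0.91 ± 0.53 (SE), and that of CCNB2 was 1.22 ± 0.71 (SE), the latter 0.34 without treatment replicate 5. For AURKB, the Aurora kinase of the chromosomal passenger complex, the value was 1.11 ± 0.67 (SE), from only 2 to 31 counts per library, and 0.70 without treatment replicate 4. The spindle proteins BIRC5 and NUSAP1, a microtubule bundling factor, were at 0.72 ± 0.56 and 1.02 ± 0.98 (SE), and at 0.22 and 0.39 without treatment replicate 4. NUSAP1 was at 2.44 without control replicate 2.

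G1 and replication genes leaned the same way less evenly, with CCND2 and 3 replication genes lower. CCND2 was at 717, 452, 676, 856 and 343 CPM in control and 580, 577, 321 and 235 CPM in treatment, a log2 fold change of -0.51 ± 0.35 (SE; edgeR, adjusted p = 0.983), with 2 of the 4 treatment libraries inside the control range and 2 below it, and it was -0.31 without treatment replicate 7. CCND1 was at 0.05 ± 0.91 (SE), and it was lowest in control replicates 2 and 7 (0.164 and 0.748 CPM). E2F1 was at 0.76 ± 0.67, CCNE2 at 0.27 ± 0.54, MCM4 at 0.77 ± 0.57 and PCNA at 0.51 ± 0.36 (SE, all on the log2 scale). Single libraries set the size of these values: without treatment replicate 4, E2F1 was at 0.25, MCM4 at 0.39, CCNE2 at 0.10 and PCNA at 0.32, and without control replicate 2, E2F1 and MCM4 were at 1.29 and CCNE2 at 0.63. CCNE2 was at 0.14 without control replicate 7, 0.12 without control replicate 8, 0.17 and 0.15 when treatment replicates 5 and 6 were left out in turn, and 0.60 without treatment replicate 7, and PCNA was at 0.26 without treatment replicate 5 and 0.78 without treatment replicate 7. Of the 9 replication genes tested, 6 had higher and 3 lower fitted values, with a median of 0.45. Treatment replicate 7 was the lowest of the 4 treatment libraries for MCM3, MCM4, MCM5, PCNA, TYMS, CCNE2 and E2F1.

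**Figure D4:**
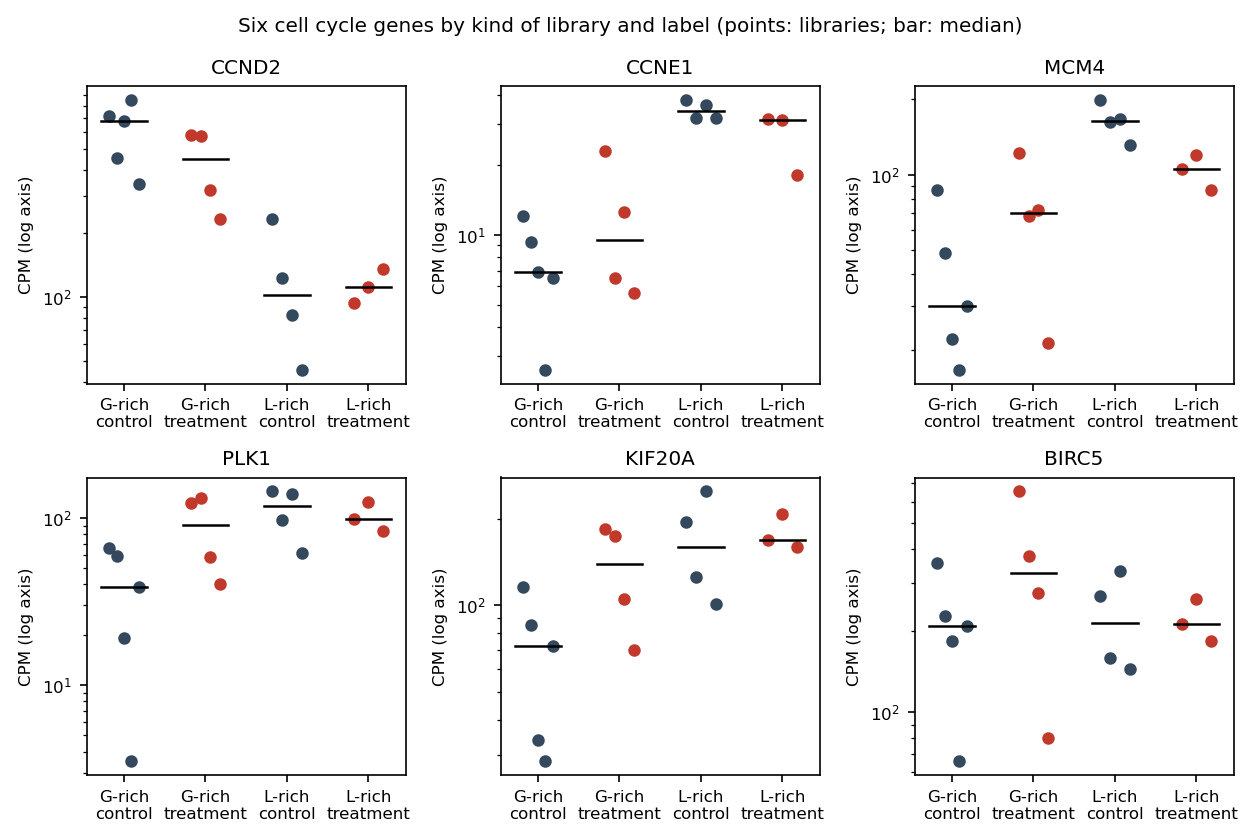
CPM (log axes) of 6 cell cycle genes in granulosa-rich (G-rich) and leukocyte-rich (L-rich) libraries, by label; points are libraries and bars medians. Control and treatment overlap in every panel except MCM4 and CCNE1 in the leukocyte-rich libraries, where all 3 treatment libraries are below the 4 controls.

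In the leukocyte-rich libraries, 3 treatment against 4 control, the replication genes leaned the other way. Fitted values were higher in treatment for 8 and lower for 20 of 28 cell cycle genes tested, the median log2 fold change was -0.13, and 0 passed (edgeR, 0.0% of 9912 features). All 9 replication genes tested had lower fitted values, from -0.64 to -0.03 with a median of -0.31. The direction over the 28 genes rested on single libraries: 15 had higher fitted values without control replicate 1 (median 0.02), without control replicate 6 (median 0.02) or, of 29 then tested, without treatment replicate 3 (median 0.03), 4 without control replicate 5 and 2 without control replicate 9. Control replicates 1 and 6 were the highest of the 7 libraries for 13 and 12 of the 28 genes, and control replicate 9 and treatment replicate 3 the lowest for 12 and 11. Over all features the median was 0.01, with 51.1% higher.

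MCM4, a subunit of the replicative helicase, had the lowest p. It was at 199, 162, 167 and 131 CPM in control replicates 1, 5, 6 and 9 and at 105, 120 and 87 CPM in treatment replicates 1 to 3. All 3 treatment libraries lay below the lowest control. On the log2 scale the mean was 7.35 ± 0.25 (SD, n = 4 control libraries) and 6.69 ± 0.234 (SD, n = 3 treatment libraries), and the fold change was -0.64 ± 0.18 (SE; edgeR, unadjusted p = 0.00829, adjusted p = 0.9996). CCNE1 was at 38.2, 31.8, 36.3 and 31.6 CPM against 31.4, 31.3 and 18 CPM, so that its groups were also apart, though by little, with a log2 fold change of -0.34 ± 0.23 (SE) that was -0.12 without treatment replicate 3. These 2 of 28 genes had treatment wholly below control, as had 2.63% of all features, and 0 of 28 had it wholly above (1.75% of all features). MCM3 was at -0.43 ± 0.18 (SE; edgeR, unadjusted p = 0.0448) with overlapping ranges of 207 to 310 CPM in control and 165 to 227 CPM in treatment. MCM4 and MCM3 were the 2 cell cycle genes with an unadjusted p under 0.05, both lower, where 1.2% of all features were lower and 1.41% higher at that p.

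Among the mitotic genes of the leukocyte-rich libraries, none had separate groups. KIF20A was at 194, 125, 250 and 101 CPM in control and 169, 208 and 160 CPM in treatment, and the treatment libraries lay inside the control range. PLK1 was at 145, 97.1, 138 and 61.4 CPM against 98.1, 125 and 83.9 CPM, again inside the control range. NUSAP1 was the gene with the highest fitted value, at 1.18 ± 0.59 (SE; edgeR, unadjusted p = 0.0861, adjusted p = 0.9996), from 5 to 63 counts per library. CCND1 was at 0.83 ± 0.5 (SE), and 0.15 without treatment replicate 3, where it was at 32.6 CPM. Markers of other cells differed among these libraries too. T and NK cell markers summed to 131 to 981 CPM in control and 363 to 1120 CPM in treatment, and granulosa markers to 180 to 325 CPM and 173 to 4731 CPM. Theca and stroma markers summed to 309 to 1074 CPM in control and to 2983, 4436 and 103 CPM in treatment replicates 1, 2 and 3, with the collagen gene COL1A1 at 1495 and 1975 CPM in the first 2 of these and at 59.1 to 296 CPM in control. Endothelial markers were at 175 CPM in treatment replicate 3 and at most 31.9 CPM in control. S100A8, of neutrophils and monocytes, was at 0 to 151 CPM in control and at 24, 36 and 746 CPM in treatment, while MMP9, another gene of the neutrophil list, was highest in control replicate 6 (3705 CPM) and in treatment replicates 1 and 2 (1233 and 1112 CPM). The part of these cells in the comparison was not tested.

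**Figure D5:**
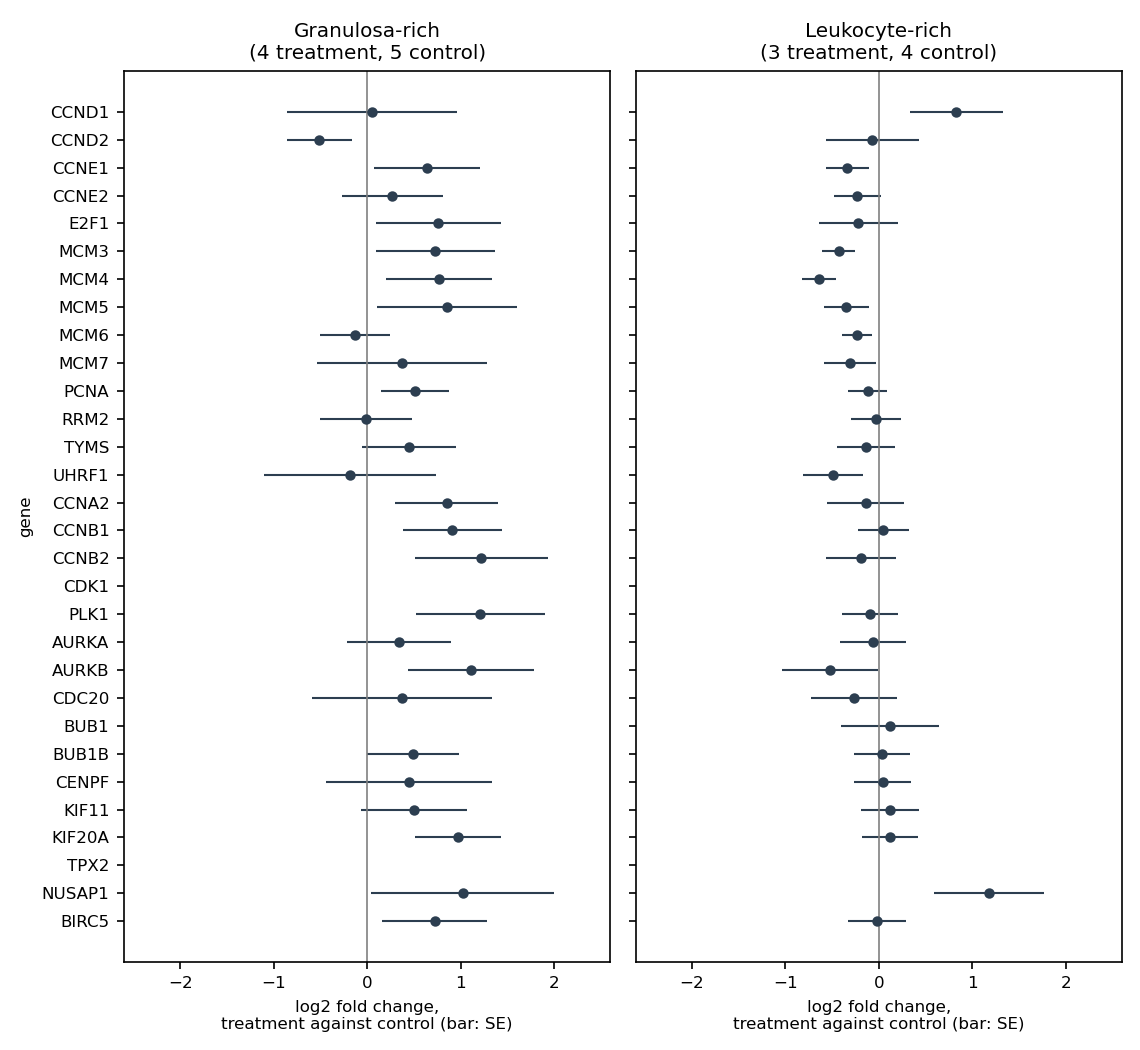
Log2 fold change of treatment against control with its standard error for each cell cycle gene tested, in granulosa-rich (left) and leukocyte-rich (right) libraries; genes without a point were too low to test. Points sit mostly to the right of 0 on the left panel (median 0.51) and close to 0 on the right one (median -0.13), and no gene passed the test.

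The difference between the 2 within-kind effects was tested directly as an interaction over the 16 libraries. Of 29 cell cycle genes tested, 25 had a lower treatment effect in the leukocyte-rich than in the granulosa-rich libraries, with a median log2 difference of -0.69 against -0.06 over all 11468 features, and 0 passed (edgeR, 0.0% of all features). The lowest p belonged to MCM4, with a difference of -1.46 ± 0.7 (SE; edgeR, unadjusted p = 0.055, adjusted p = 0.911). AURKB was at -1.66 ± 0.87 and CCNB2 at -1.47 ± 0.93 (SE), the latter -0.57 without treatment replicate 5. Without treatment replicate 4 the median was -0.28, and 11 of 29 genes had a higher effect instead of 4. With the kinds ignored, the comparison of all 16 libraries had 20 of 28 genes with higher fitted values and a median of 0.22 (0.0% of 9653 features passed), and without treatment replicate 4 that median was 0.00 with 14 of 28 higher. The 3 lowest p there were those of NUSAP1 at 1.1 ± 0.61, CCNB1 at 0.47 ± 0.37 and KIF20A at 0.47 ± 0.38 (SE), and none passed; 0 of the 28 had an unadjusted p under 0.05, against 0.787% of all features higher and 0.901% lower.

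A wider list of 98 cell cycle genes, 87 of them in the files, was compared in the same fits, and no gene on it passed. In the granulosa-rich libraries 58 of 68 tested had higher and 10 lower fitted values, with a median of 0.48. Replication genes outside the first list were higher in 16 of 16 and mitosis genes in 30 of 31. Over all features 52.9% were higher. The same libraries held the extremes as in the first list. Treatment replicate 4 was the highest of the 9 for 38 of the 68 genes (11.9% of all features). Control replicate 7 was the lowest for 32 (17.2% of all features). GINS4, a subunit of the replicative helicase complex, was at 13.7, 11.3, 3.53, 7.61 and 1.83 CPM in control and 24.1, 23.6, 16.1 and 16.2 CPM in treatment. Every treatment library lay above every control library, with a log2 fold change of 1.37 ± 0.57 (SE; edgeR, unadjusted p = 0.0353, adjusted p = 0.983). E2F4 had separate groups as well, so that 2 of 68 genes lay wholly above, as did 0.809% of all features. In edgeR's test 3 of the 68 genes had an unadjusted p under 0.05, beside 4.67% of all features. CKS2, a partner of the cyclin-dependent kinases, was at 1.29 ± 0.57 (SE), and 0.58 without treatment replicate 5, where it was the highest of the 9. CDKN2B (p15) was at 2.41 ± 1.01 (SE), and 0.41 without treatment replicate 7, which held 29.2 CPM against at most 2.7 CPM in the other treatment libraries.

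The inhibitors CDKN1A and CDKN1C had lower fitted values in the granulosa-rich treatment libraries, at -2.01 ± 1.17 and -0.99 ± 1.61 (SE), with groups that overlapped widely. The CDKN1C value was -4.62 without treatment replicate 7, -0.28 without control replicate 7, -0.52 without control replicate 4, and -0.60 and -0.59 without treatment replicates 5 and 6. CDKN1C was at 17.3, 14.2, 517, 607 and 27 CPM in control and 23.9, 3.07, 1.77 and 450.0 CPM in treatment, so that both groups held high and low libraries. CDKN2C (p18) was at 25.6 to 114 CPM in control and 37 to 121 CPM in treatment. The retinoblastoma gene RB1, the brake on E2F factors, was at 46.9 to 78.8 CPM in control and 51.7 to 60.6 CPM in treatment. Its relative RBL1 (p107) was at 42.6 to 130 CPM and 17.5 to 138 CPM, and RBL2 (p130) at 9.04 to 12.4 CPM and 6.54 to 13.6 CPM. Of the kinases that D cyclins activate, CDK4 was at 4.47 to 16.9 CPM in control and 6.03 to 23.5 CPM in treatment, and CDK6 at 0 to 6.24 CPM and 0.118 to 2.9 CPM. Cyclin D3 (CCND3) was at 3.96 to 13.8 CPM and 0.828 to 12 CPM, lowest in treatment replicate 5. Control and treatment overlapped for each of these 7 genes, of which only RBL1 has a single accession.

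In the leukocyte-rich libraries 32 of 75 genes of the wider list had higher and 43 lower fitted values, with a median of -0.06. Replication genes were lower in 15 of 19. Over all features 51.1% had higher fitted values. CHAF1B, a chaperone that places histones on new DNA, was at 56.2, 40.2, 49.1 and 39.7 CPM in control and 31, 38.8 and 27.6 CPM in treatment, a log2 fold change of -0.49 ± 0.19 (SE; edgeR, unadjusted p = 0.0372, adjusted p = 0.9996). RFC5, a subunit of the clamp loader, was at -0.65 ± 0.27 (SE), with 1 treatment library above the lowest control. CHAF1B and RFC5 were the 2 of 75 genes with an unadjusted p under 0.05 in edgeR's test, beside 2.61% of all features. Of the 75 genes 3 had treatment wholly below control (CHAF1B, GINS3 and PRIM1), near the background share of 2.63%. CDKN1A was at 2.54, 4.09, 7.67 and 0.774 CPM in control and 5.08, 5.88 and 34.4 CPM in treatment, and its log2 fold change of 2 ± 0.9 (SE) was 0.56 without treatment replicate 3.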

How the data were processed

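Poly(A) RNA of follicular aspirates was sequenced in 16 libraries. The tools named in the submitters' processing notes are cutadapt, Bowtie2 and SAMtools, and the sources used here give no version, build, annotation or rule for multi-mapping reads. The deposited files hold whole-number counts per RefSeq accession, not normalized, and accessions not listed in a file were taken as 0. Of 27306 accessions, 133 genomic records (0.712 to 1.92% of a library's counts) were left out. Symbols came from RefSeq's table of the assembly ARS-UCD2.0 (18973 of 27173 transcript accessions, 95.1% of counts), and counts were summed per gene. The kit does not mark strand, so overlapping genes cannot be told apart. No 2 libraries were duplicates (highest correlation of log2 CPM 0.956).

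Tests used edgeR 4.0.16 in R 4.3.3 (quasi-likelihood, robust, TMM, filterByExpr, Benjamini-Hochberg threshold 0.05) on all features that passed the filter. TMM factors were computed anew for the libraries of each fit. Those applied to the printed CPM ran from 0.65 to 1.13. Standard errors are the log2 fold change over the square root of F, and log2 CPM has a prior count of 1. Tested on simulated data, the granulosa-rich fit (9272 features) recovered 31% of planted log2 changes of 2 and 78% of those of 4. The leukocyte-rich fit (9912 features) recovered 53% and 85%. No smaller change was planted. Fitted changes of the first list reached at most 1.22 and 1.18 in these fits, so recovery at such sizes was not tested. Alternatives were other scalings and filters, DESeq2 1.42.0, limma-voom (limma 3.58.1), the replicate number as a block, the kind as a covariate and each library left out, and counts per accession were added after seeing the data. The members and lists were chosen with earlier results of these data known. Any member could be named. Of the wider list the rule named the CDK inhibitors, pocket proteins, CCND3, CDK4, CDK6, TK1 and the 3 lowest p per kind; E2F4, GINS3 and PRIM1 were chosen after their values were seen.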

Additional observations from a re-analysis of the deposited data

Results flagged for a closer look

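Within the label groups of each kind of library, values of the cell cycle genes were screened for a library far from the others, in groups of 4 or 5 (the 3 leukocyte-rich treatment libraries were too few). Of 82 combinations of gene and group screened 2 held such a library, where chance gives about 1 in 20 for normally distributed values. The combinations are not independent, because the same libraries serve every gene, so the count can stray further from that share. CCNE2 was at 11.7 CPM in treatment replicate 7, against 58.9 to 67.9 CPM in the other 3 granulosa-rich treatment libraries. PCNA was at 338 CPM in control replicate 2, against 216 to 242 CPM in the other 4 granulosa-rich control libraries.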

How the results depend on the processing

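No cell cycle gene passed in any of the 4 comparisons under any alternative. DESeq2 called 27 of all features in the granulosa-rich libraries and 24 in the interaction. With the replicate number as a block, the median of the cell cycle genes in the granulosa-rich libraries was 1.42, against 0.12 over all features. That fit rests on replicates 4 and 7, the only numbers found in both groups there. Control replicate 7 was the lowest library for 13 of the 27 genes and treatment replicate 4 the highest for 19. The labels do not say that equal numbers pair libraries. Correlations of deviations for these 2 numbers (-0.187 and 0.245) are too few to decide it. Over all 16 libraries the block gave 0.18. No block could be fitted in the leukocyte-rich libraries, which share 1 number. The genes with a higher effect in the interaction were 1 of 20 with at least 10 counts in every library and 7 of 36 accessions when accessions were counted. With library size alone the median of all features in the granulosa-rich libraries was 0.19 instead of 0.04, and that of the cell cycle genes 0.64. Genes with separate ranges between the kinds were 1 with library size alone and 2 to 6 with each library left out. Leaving out each library gave 2 to 15 genes with higher values in the leukocyte-rich libraries, 2 to 11 in the interaction, and -0.27 to 0.53 for CCND1 in the granulosa-rich ones. Medians ran from 0.18 to 0.84 there, from -0.29 to 0.03 in the leukocyte-rich libraries and from -0.97 to -0.28 in the interaction. The causes were not tested. Limits of counts cover counting error only.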
